A study of Mus musculus with 12 samples.

Results

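The genes examined were 10 that build and steer growing neurites, namely the stathmins Stmn1, Stmn2, Stmn3 and Stmn4, the growth cone membrane proteins Gap43, Basp1 and Marcksl1, and the microtubule and collapsin response proteins Dcx, Dpysl3 and Crmp1. They were taken by name, and all 10 were present among the 18879 genes of the deposited cell by gene table. Single cells came from the prefrontal cortex of newborn mice (postnatal day 0), labelled C57BL/6J although the study's methods name C57BL/6N. They were of 3 Myt1l genotypes: wild-type (WT), heterozygous (HET) and homozygous (HOM) for a germline 7 bp deletion in exon 6. The deletion shifts the frame and brings a premature stop at residue 78. The study also detected a truncated protein, most likely begun at a later methionine. The deletion was made by CRISPR/Cas9 in zygotes and is carried by every cell, so nothing limits it to neurons. Cells of 2 animals per genotype were fixed in methanol, pooled and captured in 1 droplet library per genotype, and the 12 deposited samples are 4 runs of each of these 3 libraries.

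With 1 library per genotype no difference can be tested against the variation between animals. Every comparison below is therefore between libraries, described by its size. The genotype names are those of the deposited cell table. The study's text gives the same 3 cell numbers to the genotypes in another order, so WT, HET and HOM stand throughout for the libraries labelled so.

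Stathmins bind soluble tubulin and promote the shortening of microtubules, and phosphorylation switches them off. Stmn1 is found in dividing and neural cells, whereas Stmn2, Stmn3 and Stmn4 carry a membrane anchor and are neuronal. Gap43, Basp1 and Marcksl1 sit at the inner face of the growth cone membrane and act on the actin cortex beneath it, Dcx bundles microtubules in migrating neurons, and Dpysl3 (CRMP4) and Crmp1 relay semaphorin signals to the cytoskeleton. All are textbook genes of young neurons extending axons, and Stmn1 is not confined to cells that have left the cell cycle.

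Upstream sequences are shown for 3 genes, chosen because Stmn3 was higher, Basp1 lower and Marcksl1 little different in the libraries labelled mutant. Each run holds the 250 bases before the annotated start in RefSeq (build GRCm38.p6), 5′ to 3′ on the strand of the gene. Capitals mark a match, on either strand, to any of 4 short words that were searched and do not overlap each other in letters. AAAGTT is the core of the motif bound by the MYT1 family. CATCTG is an E-box read by proneural factors. GGGCGG is the GC box. TATAAA is the TATA box. Stmn3 lies on the minus strand of chromosome 2 and its run covers chr2:181314501-181314750. Marcksl1 lies on the plus strand of chromosome 4 and its run covers chr4:129513331-129513580. Basp1 lies on the minus strand of chromosome 15 and its run covers chr15:25413765-25414014.
Stmn3: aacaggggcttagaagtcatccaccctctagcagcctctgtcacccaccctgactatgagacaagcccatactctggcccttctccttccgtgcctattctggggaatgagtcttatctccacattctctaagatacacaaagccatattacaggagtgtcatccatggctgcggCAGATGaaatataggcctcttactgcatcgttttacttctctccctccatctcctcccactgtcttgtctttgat
Marcksl1: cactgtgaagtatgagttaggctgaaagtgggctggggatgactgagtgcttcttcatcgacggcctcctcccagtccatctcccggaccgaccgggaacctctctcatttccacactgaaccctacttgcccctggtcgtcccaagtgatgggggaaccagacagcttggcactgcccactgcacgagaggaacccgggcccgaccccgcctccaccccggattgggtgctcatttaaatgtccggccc
Basp1: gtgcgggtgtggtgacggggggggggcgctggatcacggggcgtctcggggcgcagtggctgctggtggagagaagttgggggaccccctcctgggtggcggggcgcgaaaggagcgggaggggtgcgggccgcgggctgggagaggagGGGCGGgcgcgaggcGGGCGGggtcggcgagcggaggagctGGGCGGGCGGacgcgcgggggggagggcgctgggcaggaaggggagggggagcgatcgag

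The 3 runs differ in composition. The Stmn3 run has a GC content of 48.8% and 3 CpG, the Marcksl1 run 60.4% and 12, and the Basp1 run 78.8% and 30. An upstream sequence was at hand for 5 of the 10 genes, Stmn3, Marcksl1, Basp1, Dcx and Crmp1. AAAGTT stood in 0 of these 5, and in 12.4% of all 32851 upstream runs of the same length. CATCTG stood in Stmn3 (14.4% of all runs), GGGCGG in Basp1 and Crmp1 (32.7%) and TATAAA in Dcx (12.4%). These matches describe letters in the window and are not binding sites. Of the other members, Stmn1 spans chr4:134468320-134473843, Stmn2 chr3:8509360-8561606, Stmn4 chr14:66344296-66361680, Gap43 chr16:42248442-42340651, Dcx chrX:143855842-143933311 and Crmp1 chr5:37241940-37292133 in the same build.

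The table holds 36263 cells of 21 deposited cell types, 10503 cells in WT, 12072 in HET and 13688 in HOM. Median depth was 1045, 1099 and 1330 molecules per cell, and cells that reached 2000 molecules are called deep below. Deposited values were already corrected for depth. A level is therefore the value of a gene summed over the cells of a type, per 1000000 of the summed values of that type (CPM), and has no counting interval. Comparisons used the 18 types in which no library held fewer than 100 cells. Cell barcodes shared by a pair of libraries numbered 199 to 240, and 3 occurred in all. Among marker lists, those of striatal neurons, oligodendrocytes, microglia and endothelial cells were highest in the types of those names, and the cycling list in Ganglionic eminences [9-P]. The list for layer V-VI neurons was highest in Striatal inh2 [7-P] and that for intermediate progenitors in Ganglionic eminences [9-P], with SVZ1 (migrating) [2-P] next, so the deposited names are used as labels only. Of the cells labelled WT, 2121 held Xist RNA, a mark of female cells, against 2 of those labelled HET and 1 of those labelled HOM. Cells holding a Y-linked transcript numbered 603, 1865 and 2086, so the sexes in the pools differed between WT and both other libraries. Myt1l RNA itself averaged 479 CPM over the layer neurons labelled WT, 630 over those labelled HET and 1038 over those labelled HOM. A short deletion that leaves the transcript in place cannot check the labels by RNA level.

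The first question was where along the path from progenitor to neuron each gene is expressed. Levels of 6 genes were highest in a layer II to VI neuron type: Stmn2, Gap43, Dpysl3, Basp1 and Crmp1 in LayerII-IV [4-P], and Stmn4 in LayerV-VI [12-P]. Stmn1 and Marcksl1 were highest in SVZ1 (migrating) [2-P], the deposited type of young cells leaving the subventricular zone. Stmn3 was highest in Int2 [14-P] and Dcx in Int1 [5-P], both interneuron types. By the mean over libraries, Stmn1 and Stmn3 also peaked in LayerII-IV [4-P] in deep cells, and the other 8 kept their type. Deep cells were few there, 75 in WT LayerII-IV [4-P] and 26, 41 and 55 in Int2 [14-P] (WT, HET and HOM). In WT deep cells alone Int2 [14-P] was highest for Stmn3 (2177 CPM against 1905 in LayerII-IV [4-P]) and Gap43 (2071 against 1833). It was also highest for Stmn4 (929 against 840 in LayerV-VI [12-P]).

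Stmn1 was broad among neurons. SVZ1 (migrating) [2-P] gave it 6918, 8171 and 9904 CPM (3 values in a row stand for WT, HET and HOM here and below). Over the 11 types of neurons and migrating cells the mean level differed only 1.54-fold from highest to lowest, and then dropped to 3065 CPM in Astrocytes (immature) 2 [13-P], below the range of every neuron type. Ganglionic eminences [9-P], whose cells carry the cycling genes, were at 5577, 5537 and 5782 CPM and so near the interneurons.

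Stmn2 separated the neuron types. LayerII-IV [4-P] was at 4024, 5120 and 5546 CPM, and SVZ1 (migrating) [2-P] at 645, 1111 and 1774. Ranges here and below run over the 3 libraries, 1 per genotype, and so hold the difference between libraries as well. They did not overlap between LayerV-VI [18-P] (3281 to 4675) or Int2 [14-P] (3165 to 3488) and LayerII-IV [1-P] (1730 to 2728). Layer types thus fell into a higher and a lower pair, [4-P] with [18-P] and [1-P] with [12-P]. From LayerII-IV [1-P] down to Astrocytes (immature) 2 [13-P] each type overlapped with the next.

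Stmn3 and Stmn4 followed with smaller steps. Stmn3 in Int2 [14-P] was at 1735, 1861 and 1738 CPM, within the range of LayerV-VI [18-P] (1368 to 2023) and LayerII-IV [4-P] (1407 to 1943). Stmn4 in LayerV-VI [12-P] was at 670, 856 and 1303 CPM and in Ganglionic eminences [9-P] at 62.0, 76.8 and 58.8, a difference of 14.3-fold between the means. Striatal inh1 [3-P] came second for Stmn4, at 640, 815 and 918 CPM, and overlapped with the first.

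Gap43, the protein kinase C substrate of axonal growth cones, had the steepest profile. It reached 1530, 1951 and 1688 CPM in LayerII-IV [4-P], and 118, 142 and 173 in SVZ1 (migrating) [2-P]. Over the 11 types of neurons and migrating cells this was an 11.9-fold range. Its SVZ1 end lay below Microglia of the same libraries (205, 386 and 272 CPM), read below as free RNA, so the fold is against a floor. The 4 highest types (LayerII-IV [4-P], Int2 [14-P], LayerV-VI [18-P] and Striatal inh1 [3-P]) lay between 1150 and 1951 CPM, and the fifth, LayerV-VI [12-P], between 443 and 614, with no overlap. The types high for Gap43 were also the 4 highest for Dpysl3.

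Basp1, which shares the membrane-bound, kinase C regulated mode of action of Gap43, was flatter, 1.92-fold over the same 11 types. All 17 neighbouring pairs in its order of 18 types overlapped. Basp1 fell from WT over HET to HOM in 15 of these types, which widens its ranges over libraries, so the overlap alone does not measure flatness. Marcksl1 was highest in SVZ1 (migrating) [2-P] (3361, 3795 and 4217 CPM) and next in LayerII-IV [1-P] (3020, 3626 and 3668). It lay lower in the high-Gap43 LayerV-VI [18-P], at 2074, 2541 and 2434 CPM, so the types rich in Gap43 were not those rich in Marcksl1.

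Dcx, the microtubule protein of migrating neurons, stood apart in Int1 [5-P], at 1046, 979 and 968 CPM. LayerV-VI [12-P] followed at 818, 766 and 878, below that range. Every further neuron type and SVZ1 (migrating) [2-P] overlapped with its neighbour, between 461 and 844 CPM, and Astrocytes (immature) 2 [13-P] then dropped to 142 to 242. Dpysl3 had the most separate steps, with 6 of 17 neighbouring pairs apart, from 2151 to 2458 CPM in LayerII-IV [4-P] down to 209 to 258 in Endothelial1 [17-P]. Crmp1, of the same family as Dpysl3, was at 1215 to 1406 CPM in LayerII-IV [4-P] and at 911 to 960 in Int2 [14-P], again apart.

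**Figure D1:**
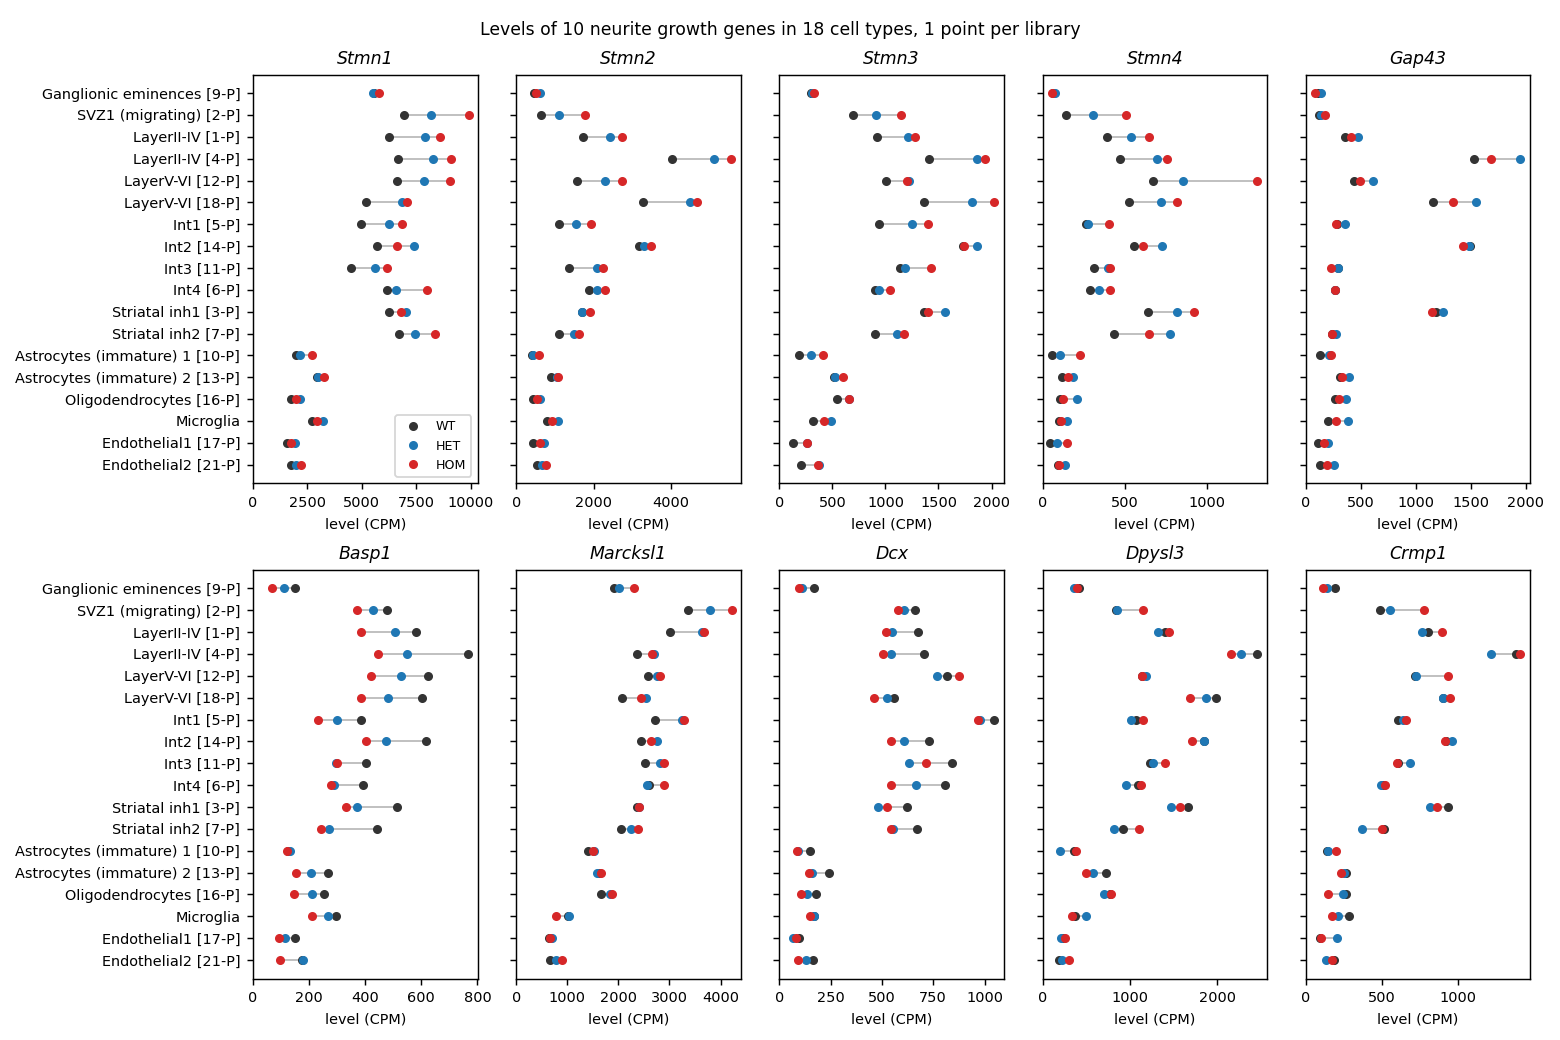
Level in CPM (x axis, from 0) of the 10 genes in 18 cell types (y axis, from germinal and migrating cells through neurons to glia and non-neural cells), with 1 point per library and a grey line over the range of the 3. Stmn2 and Gap43 split the layer neurons into a higher and a lower pair, whereas Stmn1 is nearly even among neurons, 1.54-fold from highest to lowest.

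Microglia and endothelial cells are not neurons, so their values are used as readings of free RNA in droplets. Empty droplets were not examined, and this use was not tested. The readings may hold expression of these cells, as Stmn1 is also found in dividing cells. For Stmn1 deep Microglia read 963, 1403 and 1053 CPM and deep Endothelial1 [17-P] 366, 638 and 641. Deep Microglia numbered only 27, 24 and 45 cells and deep Endothelial1 [17-P] 68, 92 and 147, so all deep readings of these types are coarse. Microglia of the 3 libraries read 794, 1091 and 936 CPM for Stmn2, while the mean of the layer neurons was 2651, 3580 and 3923. Layer neurons exceeded the mean of Microglia and Endothelial1 [17-P] by 2.69-fold (Basp1 in HET) to 7.63-fold (Crmp1 in HOM). The microglial gene C1qb was at 3493 CPM in WT Microglia and 16.5 in WT layer neurons, so the cells named Microglia carried the defining gene of that type. In deep cells the gap was wider: the fold from highest to lowest type ran from 18.02 for Stmn1 to 65.3 for Stmn2, against 4.79 for Stmn1 to 15.5 for Gap43 in all cells. Levels in non-neural cells are therefore not read as their own expression. Some glia stood above them at like depth. Deep Oligodendrocytes [16-P] read 718, 525 and 713 CPM for Dpysl3 and deep Microglia 24.7, 159 and 146, while Marcksl1 in deep Astrocytes (immature) 2 [13-P] was at 982, 1117 and 1467 CPM and in deep Microglia at 296, 371 and 336. The same holds for shares of cells. Stmn2 was above 0 in 81.1% of 4296 WT layer neurons (exact 95% interval 79.9 to 82.3, counting error only, median 861 molecules) and in 32.4% of 510 WT non-neural cells (28.3 to 36.6, median 880.5 molecules). In deep cells these shares were 87.8% and 13.1%. For Basp1 they were 44.2% and 17.5% in all cells and 60.04% and 7.30% in deep cells.

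Layer neurons were then set against progenitor-like types (SVZ1 (migrating) [2-P], Ganglionic eminences [9-P] and Astrocytes (immature) 1 [10-P]) within each library. SVZ1 (migrating) [2-P] is a mixed member of this set, since in WT it was the highest type for the newborn cortical neuron list (5222 CPM summed) and read 929 CPM for the intermediate progenitor list. All 10 genes were higher in layer neurons in all 3 libraries. Gap43 had the largest log2 ratio, 2.76 ± 0.15 (SD over 3 libraries, 1 per genotype), with layer means of 871, 1147 and 982 CPM against 118, 163 and 162. This Gap43 reference lay below Microglia of the same libraries (205, 386 and 272 CPM), so the ratio is against a floor. Stmn2 followed at 2.25 ± 0.19 and Stmn4 at 2.14 ± 0.42, then Crmp1 at 1.68 ± 0.13, Dpysl3 at 1.62 ± 0.25 and Stmn3 at 1.51 ± 0.13. The Stmn2 reference (504, 721 and 959 CPM) lay below Microglia in WT and HET, at 794 and 1091. Stmn1 (0.46 ± 0.09) and Marcksl1 (0.18 ± 0.07) had the smallest ratios. With SVZ1 and Ganglionic eminences [9-P] as the only reference they were at 0.09 and -0.08, above 0 in 2 and 1 of 3 libraries. Among the 4 stathmins the anchored, neuronal members thus had the larger ratios and Stmn1 the smallest. Against SVZ1 (migrating) [2-P] alone in WT, Stmn1 and Marcksl1 were lower in all 4 layer types, Stmn1 by 0.05 to 0.41 and Marcksl1 by 0.15 to 0.70 on the log2 scale. The ratio of Stmn4 was largest in WT (2.58) and smallest in HOM (1.74), and its progenitor-like level was 86.3, 163 and 264 CPM. Depth differed between these types, with medians in WT of 3889 molecules in SVZ1 (migrating) [2-P] and 741 in LayerII-IV [4-P]. In deep cells alone the median ratio of the 10 genes was 2.03, and in all cells 1.57.

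The next question was how the libraries differed in the layer II to VI neurons. The log2 ratio to WT was averaged over the 4 layer types. A gene was called higher or lower where all 4 types had the same sign and the mean passed 0.25, that is 1.19-fold. In HET, 5 of 10 genes were called higher (Stmn1, Stmn2, Stmn3, Stmn4 and Gap43), a call that 12% of the 3249 measured genes had, and 1 lower (Basp1), as were 17.2% of all. In HOM, 4 were called higher (all stathmins; 16% of 3390 genes) and 1 lower (Basp1; 21.4%). The median of the 10 genes was 0.27 in HET and 0.19 in HOM. The median of the 4 stathmins was 0.41 and 0.53, and that of all genes -0.02 and -0.03.

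Among the stathmins, Stmn1 averaged 6187, 7723 and 8451 CPM. Its log2 ratio was 0.32 in HET and 0.45 in HOM, and in HOM the 4 layer types lay between 0.44 and 0.46. Stmn2, which is needed for axon growth and repair, averaged 2651, 3580 and 3923 CPM. Its ratio was 0.46 in HET (0.35 to 0.54 over the types) and 0.61 in HOM (0.46 to 0.81). Stmn3 averaged 1174, 1527 and 1612 CPM (0.37 and 0.44). Stmn4 differed most in HOM, at 515, 703 and 881 CPM, with ratios of 0.46 in HET and 0.75 in HOM, 1.37-fold and 1.68-fold. In HOM its highest ratio was 0.96, in LayerV-VI [12-P]. In each of the 4 layer types every stathmin was above WT in both other libraries. The mean ratio of Stmn4 lay above 98.0% of all measured genes in HET and 99.0% in HOM, and that of Stmn2 above 98.1% and 97.6%.

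The membrane proteins went different ways. Gap43 averaged 871, 1147 and 982 CPM, so that HET was highest, with ratios of 0.42 and 0.18. Basp1 averaged 644, 517 and 409 CPM, with ratios of -0.31 in HET and -0.65 in HOM, 0.64 of the WT level in HOM. LayerII-IV [4-P] showed its widest difference in HOM, 766 CPM in WT and 445 in HOM. Basp1 lay among the lowest genes, with 4.10% of measured genes below it in HOM. Marcksl1 averaged 2511, 2904 and 2894 CPM (0.21 and 0.20), above WT in all 4 types but short of the call.

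Dcx averaged 688, 597 and 592 CPM, with ratios of -0.21 and -0.25 and 1 type of 4, LayerV-VI [12-P], above WT in HOM. The collapsin response genes were close to WT. Dpysl3 averaged 1748, 1663 and 1606 CPM (-0.06 and -0.10), and Crmp1 949, 898 and 1045 (-0.06 and 0.16), both mixed in sign in HET. The SD over the 4 layer types was 0.14 and 0.25 for Dcx, 0.08 and 0.14 for Dpysl3 and 0.09 and 0.15 for Crmp1, so that only Dcx in HET and Crmp1 in HOM lay on 1 side of WT in all 4 types with a mean beyond this spread.

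**Figure D2:**
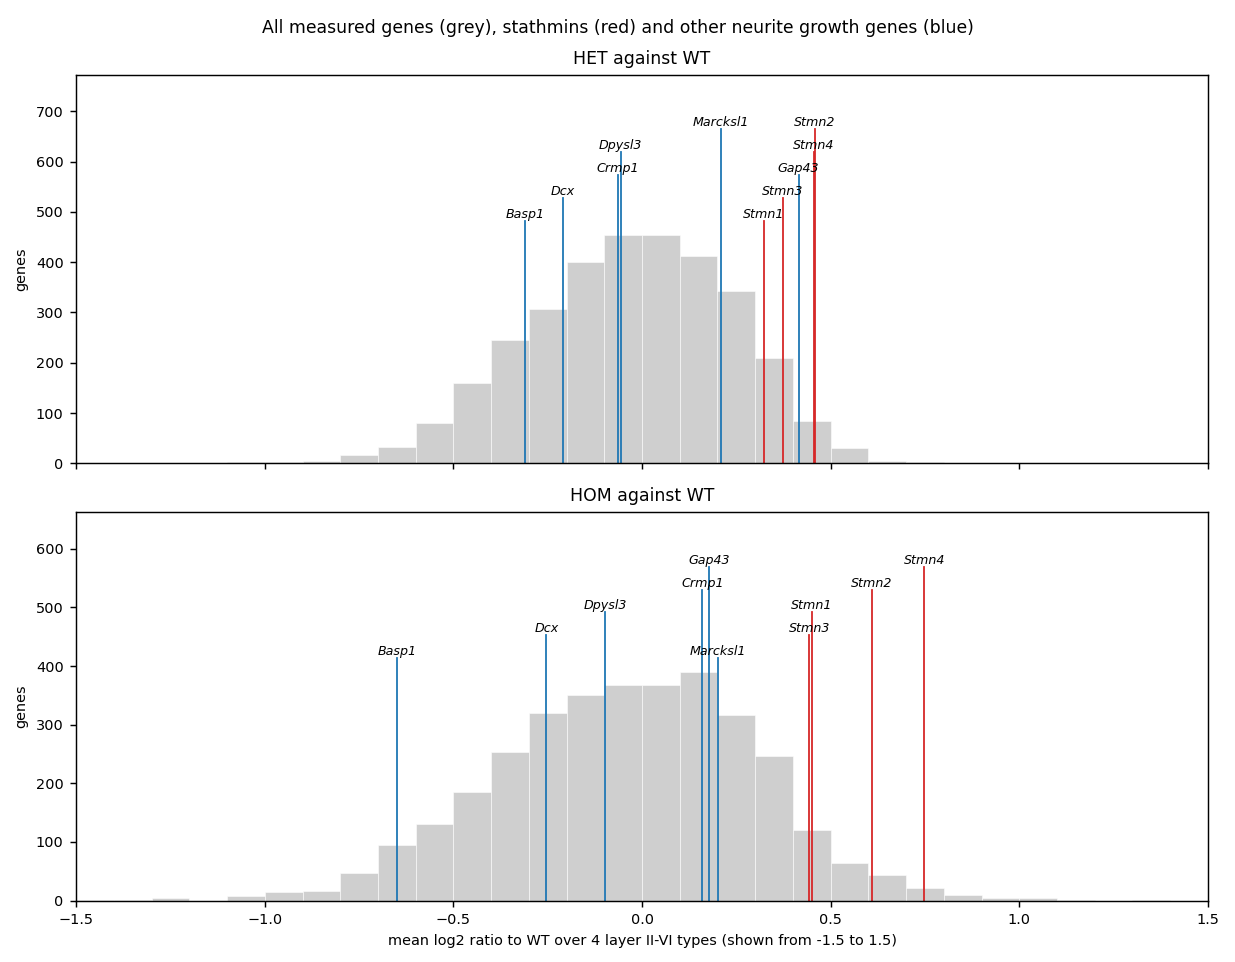
Number of genes (y axis) by mean log2 ratio to WT over the 4 layer II to VI types (x axis) for HET and HOM, with the 4 stathmins as red lines and the other 6 genes as blue lines. In HOM the stathmins stand from 0.44 to 0.75, to the right of the bulk, and Basp1 stands at -0.65.

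Several measured properties of the libraries moved with these ratios. The first is transcript length, for which the measured genes were split into 4 equal classes. The class of shortest transcripts had a median ratio of 0.16 in HET and 0.19 in HOM, and that of longest transcripts -0.23 and -0.26. Stmn1 (1060 bases), Stmn3 (1136), Stmn4 (1361), Gap43 (1420), Marcksl1 (1605) and Basp1 (1855) lie in the shortest class, Dcx (9074) and Dpysl3 (5479) in the longest. Within its class Stmn2 (3413 bases, class median -0.08 in HET and -0.13 in HOM) lay above 99.4% and 98.8% of genes, Stmn4 above 96.0% and 97.9%, and Basp1 above 1.49% and 1.07%. Gap43 in HOM lay above 48.5% and Dcx above 52.3% and 50.2% of their classes. With the trend over length taken away, Stmn1 was at 0.15 and 0.25, Stmn2 at 0.53 and 0.72, Stmn3 at 0.20 and 0.26, Stmn4 at 0.28 and 0.57, Basp1 at -0.42 and -0.83, Gap43 at 0.23 and -0.003, and Dcx at 0.031 and 0.034.

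The second is the sex of the animals. Layer neurons with a Y-linked transcript numbered 137 in WT, 637 in HET and 665 in HOM. Over these cells Stmn2 was at 2491, 3174 and 3475 CPM, log2 ratios of 0.35 and 0.48, and Stmn4 at 512, 734 and 902, ratios of 0.52 and 0.82. Stmn1 (0.20 and 0.38) and Stmn3 (0.36 and 0.38) were above WT as well. Basp1 was at 478 CPM in WT (a sum of 86), 538 in HET and 357 in HOM, so its HET ratio was 0.17 and its HOM ratio -0.42. Dcx turned, to 0.28 and 0.16, with 461 CPM in these WT cells (a sum of 83) and 626 in the 878 WT layer neurons with Xist. These levels pool the layer types, and the mix of types differed between libraries. The types high in Stmn2, LayerII-IV [4-P] and LayerV-VI [18-P], held 9 and 33 Y-linked cells in WT. They held 105 and 190 in HET and 65 and 184 in HOM, so the pooled ratios hold this mix as well. Averaged by type, which gives the 9 WT cells of LayerII-IV [4-P] equal weight, the Y-linked cells gave Stmn2 0.04 and 0.27 and Basp1 0.35 in HET. With cells holding Xist left out of every library, Stmn2 was at 0.41 and 0.56, Stmn4 at 0.51 and 0.81, Basp1 at -0.39 and -0.73 and Dcx at -0.21 and -0.25. The WT layer neurons with Xist had a median of 3403 molecules, and the 3280 with neither mark 747.5. Leaving out Xist therefore took mostly deep cells from WT and need not match the sexes. The part of sex in these ratios was not tested further. The third is free RNA. Microglia read higher for Stmn2 in HET (1091 CPM) and HOM (936) than in WT (794), and lower for Basp1 (269 and 209 against 294). With the mean of Microglia and Endothelial1 [17-P] taken off in each library, Stmn2 was at 0.43 and 0.72, Stmn4 at 0.39 and 0.72, Basp1 at -0.36 and -0.69 and Gap43 at 0.16 and 0.04. The fourth is depth, as the median layer neuron held 861, 947 and 1307.5 molecules. In deep layer neurons Stmn2 was at 0.54 and 0.72, Stmn4 at 0.52 and 0.90 and Basp1 at -0.15 and -0.59. In cells under 2000 molecules Stmn2 was at 0.37 and 0.35, Stmn4 at 0.35 and 0.39 and Basp1 at -0.38 and -0.64. The stathmins were thus above WT in deep and in shallower cells, and Basp1 below.

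**Figure D3:**
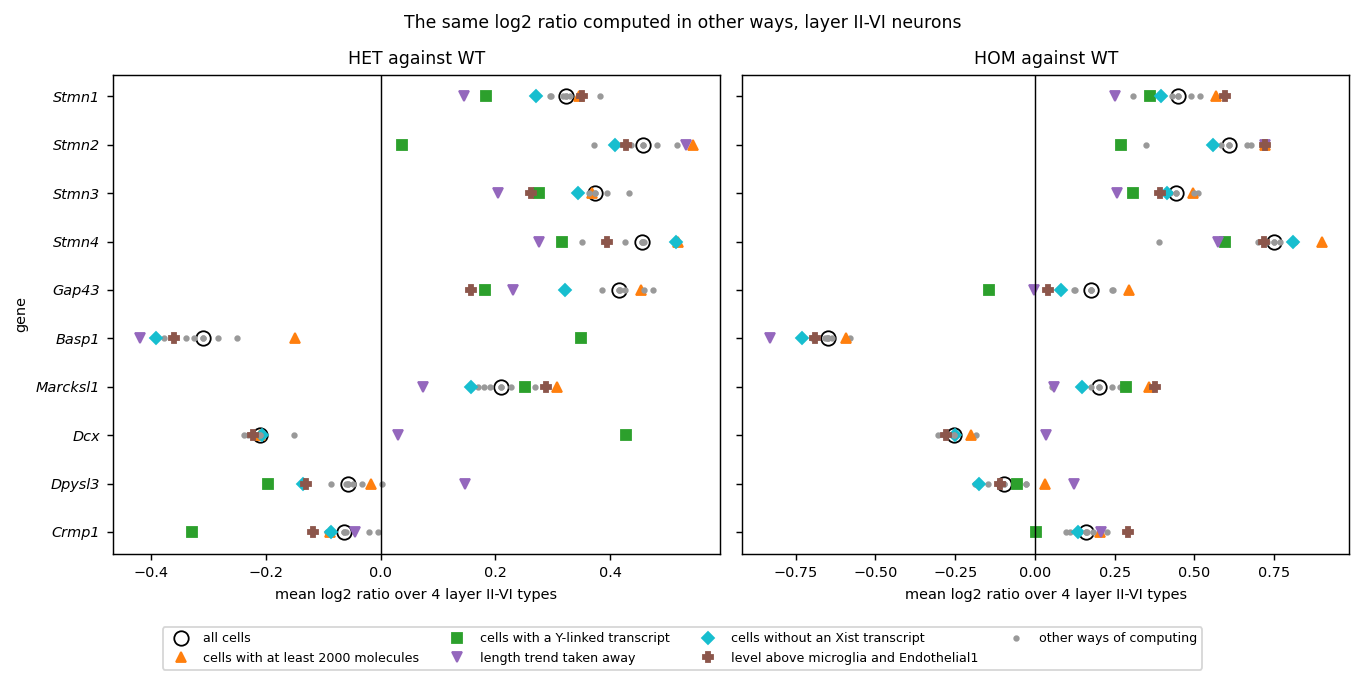
Mean log2 ratio to WT over the 4 layer II to VI types (x axis) for each gene (y axis) in HET and HOM, with an open circle for all cells and other marks for the same ratio computed in other ways. The stathmins stay right of 0 under every way shown, Basp1 stays left of 0 in HOM, and Basp1 and Dcx in HET cross 0 in cells with a Y-linked transcript, a mark missing for both genes in HOM because their sums were too low.

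Across all 18 types the direction of several members was uniform, although the 2 comparisons share the WT library and free RNA reaches every type of a library. Stmn2 and Stmn3 were above WT in 18 of 18 types in HET and in HOM. Stmn1 was above WT in 17 and 18 types, the exception being Ganglionic eminences [9-P] in HET at -0.01. Stmn4 was above in 16 of 16 measured types in HET and 16 of 17 in HOM. Basp1 was below WT in 16 types in HET and 18 in HOM, and Dcx below in 16 of 17 and 17 of 18. Gap43 was above WT in 15 types in HET and 11 in HOM, Marcksl1 in 16 and 17. Dpysl3 (6 and 10) and Crmp1 (8 and 9) had no uniform sign. With the length trend taken away fewer members kept to 1 side. Stmn2 was then above WT in 17 and 18 types and Basp1 below in 18 and 18, but Stmn1 was above in 13 and 11, Stmn3 in 13 and 14, Stmn4 in 15 of 16 and 14 of 17, and Marcksl1 in 9 and 9. Dcx was below WT in 11 of 17 and 10 of 18 types on that scale, and in Y-linked cells in 5 of 9 and 6 of 9. Basp1 in HET was below in 4 of 8 types in Y-linked cells. With the mean of Microglia and Endothelial1 [17-P] taken off, types that did not exceed it in both libraries drop out. Stmn1 was then above WT in 11 of 14 and 14 of 14 types, Stmn2 in 9 of 13 and 12 of 13. Stmn3 was above in 9 of 14 and 9 of 14, Stmn4 in 12 of 14 and 10 of 12, Gap43 in 4 of 10 and 3 of 13. Basp1 in HET was below in 13 of 14 types, and Dcx in 14 of 15 and 12 of 13. The 3 libraries stood in the order WT above HET above HOM in 15 types for Basp1, and 1.19% of the 755 genes measured in all 18 types had this order in as many types. For Stmn2 the order WT below HET below HOM held in 14 types (8.21% of genes had it in as many), and for Stmn1 in 12 (17.4%).

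In interneurons Stmn2 was again above WT and Basp1 below. Stmn2 averaged 1878, 2250 and 2487 CPM over the 4 types (0.33 and 0.49). Int2 [14-P], the interneuron type richest in Stmn2, differed least, at 3165, 3291 and 3488 CPM, and Int1 [5-P] most in HOM, at 1100, 1547 and 1928. Basp1 averaged 449, 339 and 303 CPM (-0.41 and -0.57). Dcx averaged 856, 721 and 692 (-0.26 and -0.34), below WT in all 4 types of both libraries. Calls numbered 3 higher and 2 lower in HET (12.8% and 10.1% of genes) and 4 and 2 in HOM (19.7% and 16.7%). Gap43 was below WT in all 4 interneuron types in HOM, at -0.15, whereas it was above WT in all 4 layer types.

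In the striatal inhibitory neurons Stmn4 averaged 537, 796 and 782 CPM (0.60 and 0.55) and Basp1 477, 320 and 287 (-0.59 and -0.75). HET had 1 member called higher and 3 lower, the latter with Crmp1 at -0.34 (18.6% and 17.3% of genes), and HOM 2 and 2 (21.5% and 19.1%). In glia 3 members were called higher and 2 lower in HET (14.5% and 11.6% of genes), and 5 and 2 in HOM (21.3% and 21.4%). In non-neural cells the calls were 4 and 0 of 8 measured members in HET (22% and 6.78%) and 3 and 2 of 9 in HOM (26.6% and 12.5%). There Stmn2 was at 0.51 and 0.41 and Basp1 at -0.17 and -0.69, as in neurons above and below WT, in cells whose levels are not read as their own expression. Dpysl3 (0.16 and 0.23) and, in HOM, Crmp1 (-0.23) lay on the other side of WT from the layer neurons.

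**Figure D4:**
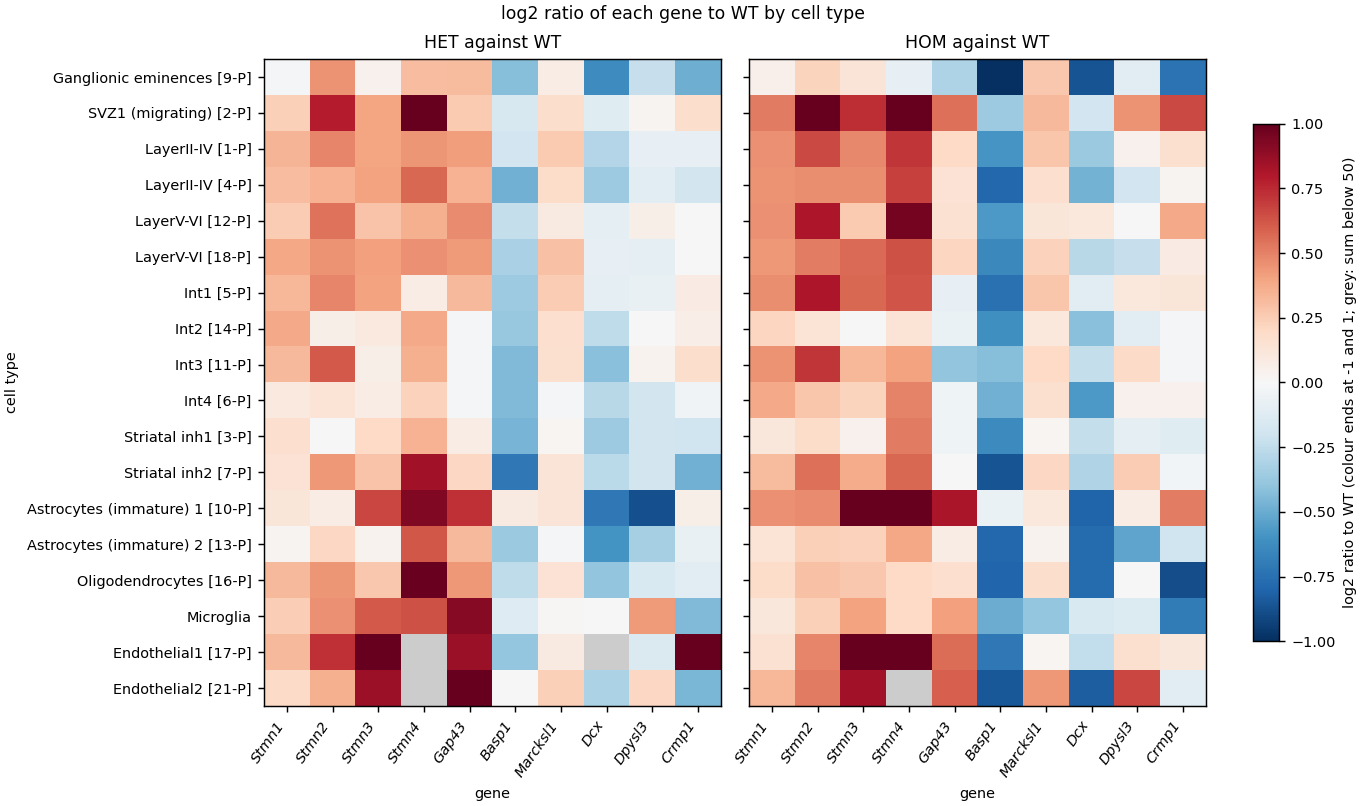
log2 ratio to WT (colour, red above and blue below, ending at -1 and 1) of each gene (x axis) in 18 cell types (y axis) for HET and HOM, with grey where the summed value was below 50. The stathmin columns are red in nearly every type, the Basp1 and Dcx columns blue, and SVZ1 (migrating) [2-P] holds the darkest Stmn2 cells, 0.78 and 1.46.

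SVZ1 (migrating) [2-P] showed the widest differences of Stmn2. It read 645, 1111 and 1774 CPM, log2 ratios of 0.78 and 1.46. In deep SVZ1 cells it read 619, 1124 and 1834 CPM, above deep Microglia (222, 344 and 336) and deep Endothelial1 [17-P] (98.9, 270.2 and 215), and the ratios were 0.86 and 1.57. Stmn4 was at 142, 307 and 508 CPM (1.11 and 1.84), and Stmn3 at 691, 907 and 1151 (0.39 and 0.74). Each stathmin was lowest in WT and highest in HOM. Dpysl3 and Crmp1, near WT in the layer neurons, were at 841, 857 and 1145 CPM and at 489, 551 and 772 here. Basp1 ran the other way, at 477, 426 and 371 CPM. In Ganglionic eminences [9-P] Stmn2 was at 449, 613 and 524 CPM and Stmn4 at 62.0, 76.8 and 58.8, with Basp1 at 151, 112 and 67.4. All lay below Microglia, at 794, 1091 and 936 for Stmn2, 96.9, 151 and 111 for Stmn4 and 294, 269 and 209 for Basp1. Over all cells these values cannot be told from free RNA, nor can the 645 of Stmn2 in WT SVZ1. WT Microglia were shallower, with a median of 741 molecules against 3889 in WT SVZ1. In deep WT cells, as given above, Stmn2 was at 619 CPM in SVZ1 and 222 in Microglia. In deep cells of Ganglionic eminences [9-P] Stmn2 was at 335, 507 and 489 CPM, above deep Microglia. Over SVZ1 and ganglionic eminences together 3 members were called higher and 2 lower in HET (14.6% and 18.1% of genes), and 4 and 2 in HOM (18% and 30.6%).

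Some markers of stage moved with the stathmins in these cells and others did not. Eomes, which defines intermediate progenitors, was at 265, 121 and 57.1 CPM, and the proneural factor Neurog2 at 95.3, 59.7 and 26.6. Of other genes on the intermediate progenitor list, Gadd45g was at 47.7, 20.8 and 50.2, and Btg2 at 19.7, 11.1 and 16.7. Sstr2 on that list ran with the stathmins, at 501, 563 and 801. Neurod2, a factor of postmitotic cortical neurons, was at 1002, 1102 and 1417. Neurod6, of the same kind, ran the other way at 901, 840 and 795, and Neurod1 was highest in HET at 454, 553 and 471. Cells with Eomes above 0 made up 20.5% of 979 SVZ1 cells in WT, 11.9% of 561 in HET and 5.81% of 792 in HOM. Among SVZ1 cells with Eomes at 0, Stmn2 was at 763, 1188 and 1826 CPM (0.64 and 1.26) and Stmn4 at 170, 332 and 534 (0.97 and 1.65). Among those with Eomes above 0, sums were low, 49, 53 and 58 for Stmn2, at levels of 194, 581 and 952 CPM. The 194 in WT lay below Microglia (794 CPM) and deep Microglia (222), and HOM held 46 such cells. No ratio is therefore read from cells with Eomes. Without Eomes the ratio of Stmn2 was smaller than over all SVZ1 cells. Among SVZ1 cells holding Y-linked RNA it was 0.55 and 1.28. The part of stage in the stathmin ratios was not tested further.

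**Figure D5:**
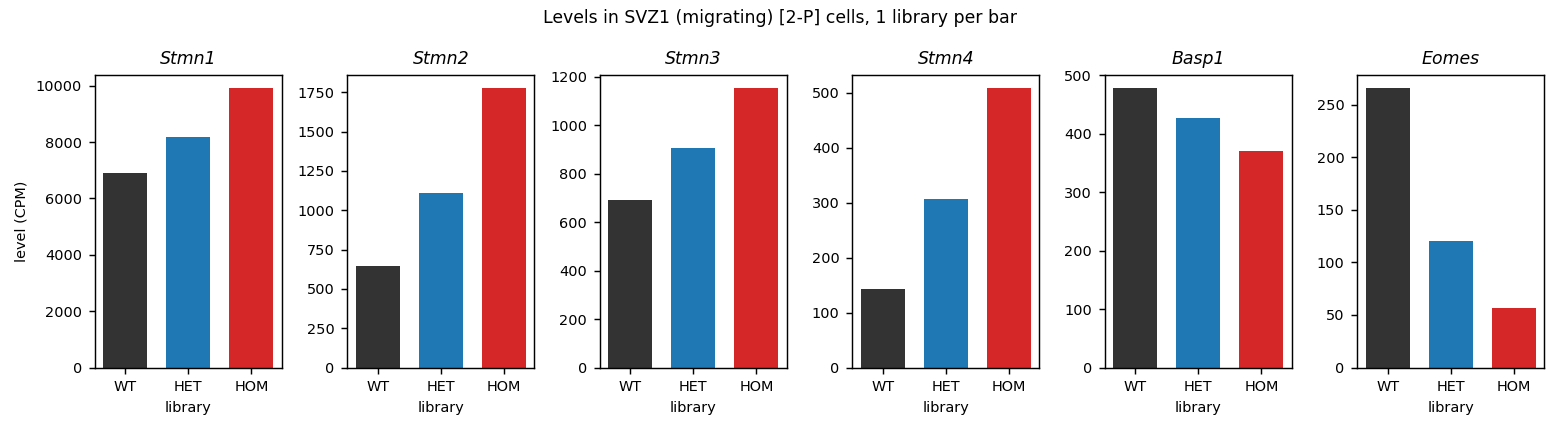
Level in CPM (y axis, from 0, a scale for each gene) in SVZ1 (migrating) [2-P] cells for the 4 stathmins, Basp1 and Eomes, with 1 bar per library and therefore no error bar. Stmn2 goes from 645 in WT to 1774 in HOM while Eomes goes from 265 to 57.1.

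Other genes of neurite growth were read from fixed lists in the layer neurons. Of 6 relatives of Dcx and the collapsin response proteins 4 were measured, 0 called higher and 2 lower in both HET and HOM. For this and the next lists the shares over all measured genes are those given above, 12% higher and 17.2% lower in HET and 16% and 21.4% in HOM. These were Dpysl5 (CRMP5), at 490, 369 and 390 CPM, and the doublecortin-like kinase Dclk2, at 88.5, 49.6 and 54.1. Dpysl2 (CRMP2) was at 362, 334 and 302. Marcks, the close relative of Marcksl1, was at 619, 526 and 476 CPM (-0.23 and -0.38, the latter called lower) and so lay on the other side of WT from Marcksl1. Of 11 measured microtubule proteins 3 were called higher and 3 lower in HET, and 4 and 3 in HOM. The neuronal tubulin Tubb3 was at 2453, 3289 and 3725 CPM, Tubb2a at 1330, 1878 and 1829, and the kinesin Kif21b at 296, 198 and 206. Of 33 growth cone and adhesion genes 7 were called higher and 4 lower in HET, and of 35 in HOM 6 and 2. The adhesion gene Cntn2 was at 294, 259 and 372, with ratios of -0.28 and 0.46, and Nrcam at 164, 145 and 135. List medians were 0.09 and 0.20 for the microtubule proteins, 0.04 and 0.09 for growth cone and adhesion and -0.27 and -0.29 for the Dcx and collapsin response relatives, against -0.02 and -0.03 for all genes. Of the regulators, with medians of -0.13 and -0.14, 6 were measured in HET and 5 in HOM, with 1 and 2 called higher and 2 and 1 lower. Sox11 was at 1127, 894 and 869 CPM, and Neurod2 at 762, 814 and 1039.

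Profiles over the 18 types were compared across types in WT, where the points share 1 library and the free RNA in it (Pearson's r of log2 CPM with 10 added, 4429 genes). Stmn2 was most like Map1b (r = 0.97), a microtubule-associated protein of growing axons. Stmn1 was most like Jpt1 and the tubulins Tubb5 and Tubb3 (0.95, 0.95 and 0.94). Dcx was most like the neuronal RNA-binding genes Celf3 and Elavl3 (0.97 and 0.96), and Gap43 most like Arhgdig (0.93). Basp1 was most like Rtn4 (0.95), Crmp1 like Ncdn (0.97), Stmn3 like Gdap1 (0.96), Stmn4 like Prrc2b (0.95), Dpysl3 like Uba1 (0.96) and Marcksl1 like Fbxo21 (0.95). These partners were picked as the highest in WT. In HET and HOM the same pairs ran from 0.76 (Crmp1 with Ncdn in HET) to 0.98 (Stmn1 with Jpt1 in HET). Between members, Stmn3 and Dpysl3 were the most alike (0.97, 0.97 and 0.98). The least alike were Gap43 and Marcksl1, at 0.45, 0.29 and 0.27.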

How the data were processed

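Newborn mouse prefrontal cortex cells of 3 genotypes were profiled by droplet single-cell RNA sequencing. Cell Ranger 4.0.0 (mm10), Seurat 4.0 and Scanpy were used by the authors for alignment, filtering and handling of cells. Cell type names had been carried over by the authors from a published atlas using scArches and scANVI. Values in the deposited matrix are whole numbers that were treated as a score. Its totals per cell ran from 825 to 1952 and molecules per cell from 499 to 17602, both equal in 617 of 36263 cells, so it was taken as corrected for depth by the authors, and no count model was fitted. The correction gives shallow cells more weight than their molecules. Per cell, the deposited table lists counts of molecules, the mitochondrial percent and, as a fraction, the probability of the transferred name. The authors' deposited tables of comparisons hold log2 fold changes, p-values, adjusted p-values and fractions of cells above 0 per gene and cell type. They were not used. No doublet caller was run.

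Values were summed per type and library and divided by their total. A gene was measured in a type where its sum over the WT library and the library compared reached 50, and a sum of 0 was set to 0.5. Levels are means over types with equal weight. Shares carry exact Clopper-Pearson 95% intervals. Transcript length is the longest transcript in GENCODE M21 (mm10), and the length trend was a rolling median over 201 genes. The members, the gene lists, the marker lists and the rules were chosen with earlier results of these data known. The text names all 10 members, up to 3 genes of each list with the largest mean absolute log2 ratio in layer neurons, and the genes most alike to each member by profile among those with a WT sum of at least 500. A named gene of the growth cone and adhesion list is not reported here. Eomes, Neurog2, Gadd45g, Btg2, Sstr2, Neurod1, Neurod2 and Neurod6 in SVZ1 cells were named as context after their values were seen. Upstream sequences are from RefSeq, with the 50 bases after the start left out. Steps were tested on simulated data. Python 3.11.15, numpy 2.4.6, pandas 2.3.3, scipy 1.17.1 and matplotlib 3.10.9 were used. Other ways to compute the values were a mean over cells, scaling by the median of ratios, leaving 111 technical genes out of totals, deep or shallow cells only, a transfer probability of at least 0.9, cells with a Y-linked transcript, the length trend taken away, and minimum sums of 20 and 200. Chosen after the data were seen were levels above Microglia and Endothelial1 [17-P], cells without Xist, and SVZ1 cells split by Eomes. All 3 libraries were used, and no columns of other samples were present.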

Additional observations from a re-analysis of the deposited data

How the results depend on the processing

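Among medians and counts computed in other ways, 135 values stayed within the spread between cell types or libraries and 16 did not, and for single members in layer neurons 175 did, 61 did not and 2 changed sign from beyond 0.25. The median of the members for HET in layer neurons was 0.15 with the length trend taken away (0.27 before), and for HOM 0.33 in cells of at least 2000 molecules and 0.33 above Microglia and Endothelial1 [17-P] (0.19 before). In interneurons the HOM median was 0.34 in deep cells over 7 members and 0.31 in Y-linked cells (those holding a Y-linked transcript) over 6. In striatal neurons the HET median was 0.28 in Y-linked cells over 7 members, -0.069 without the length trend and -0.089 above background. Y-linked cells gave -0.11 over 3 members for HET SVZ1 and ganglionic eminences, and 1.01 (HET) and 0.92 (HOM) over 1 member in non-neural cells. Deep cells gave HET glia 0.37 over 3 members. Layer neurons against progenitors came to 2.03 in deep cells, 1.18 in shallow cells and 1.28 against SVZ1 and ganglionic eminences alone, with 8 of 10 genes higher in all 3 libraries. The median share of WT layer neurons above 0 was 58.0% over all cells and 75.8% in deep cells. The 2 were Basp1 in HET, 0.35 in Y-linked cells, and Dcx in HOM, 0.034 without the length trend. Members within 0.25 also changed sign, among them Dcx in HET (0.43 in Y-linked cells, 0.031 without the length trend), Gap43 in HOM (-0.14 and -0.003) and Dpysl3 (0.15 in HET and 0.12 in HOM without the trend). The cause of these moves was not tested. No paired analysis was possible because each genotype is 1 library and the numbered samples are runs of it, so no library could be left out either. With no counts per gene as sequenced, depth limits low members such as Stmn4 and Gap43 in non-neural cells.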

Other observations

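Types with too few cells for the comparisons are given as values alone. In LayerI [19-P], 71 WT, 114 HET and 237 HOM cells, Stmn2 was at 2564, 2826 and 3100 CPM, Stmn4 at 204, 386 and 343, Gap43 at 1327, 1724 and 1421, and Basp1 at 485, 331 and 308. As in the layer II to VI neurons, Stmn2 was highest in HOM, Gap43 highest in HET and Basp1 lowest in HOM, whereas Stmn4 was highest in HET here and in HOM there. SVZ2 (migrating) [8-P] held 44, 19 and 3 cells, with Stmn2 at 1697, 1550 and 1759 CPM. Choroid plexus [20-P] held 8, 8 and 7 cells, in which Stmn1 read 3673, 4746 and 5359 CPM.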
